A study of Mus musculus with 4 samples.

Results

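The expression of 10 genes of the ATF4 stress response and of amino-acid transport was examined in mouse bone marrow-derived macrophage-like cells (BMMs). They were found by their gene symbols, and all 10 were among the 23920 genes of the expression table. They were *Atf4*, *Atf3*, *Ddit3*, *Trib3*, *Asns*, *Chac1*, *Slc7a11*, *Slc3a2*, *Slc7a5* and *Slc7a2*. RNA sequencing had been performed on 4 libraries, 1 per condition. The cKO library came from *Stat5* cKO BMMs (*Stat5* fl/fl;Mx1-Cre) cultured with M-CSF, RANKL and IL-3. By the methods, IL-3 was used at 1 ng/mL, M-CSF at 30 ng/mL and RANKL at 100 ng/mL. The IL-3 library came from *Stat5* fl/fl BMMs with the same 3 cytokines, the RANKL library from *Stat5* fl/fl BMMs with M-CSF and RANKL, and the M-CSF library from *Stat5* fl/fl BMMs with M-CSF alone. M-CSF was thus common to all 4 cultures, and the culture time in the labels was 24 h. The mice were male C57BL/6 animals, aged 8 weeks by the labels, although the methods give a younger age for the mice used in osteoclast cultures. In the fl/fl littermates *Stat5a* and *Stat5b* are floxed but intact. In cKO mice Cre is driven by the interferon-inducible Mx1 promoter, which acts in hematopoietic stem cells and in other tissues, and both genotypes had received poly I:C. The number of mice behind each library is not given in the sources used here. The study asked by this design which genes depend on STAT5 when IL-3 is added to RANKL. With 1 library per condition, no difference has a replicate check, and each ratio describes the 2 libraries compared.

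ATF4 is a transcription factor of the integrated stress response. When eIF2 is phosphorylated, as in amino-acid shortage or endoplasmic reticulum stress, general translation falls while translation of *Atf4* mRNA rises, so that the activity of ATF4 can change without a change in its mRNA. Together with C/EBP partners it binds composite sites in genes for amino-acid synthesis and uptake, and in *Atf3*, *Ddit3*, *Trib3* and *Chac1*. Several of these genes also respond to other factors, such as NRF2 for *Slc7a11* and inflammatory signals for *Atf3* and *Slc7a2*.

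Stretches of 4 proximal promoters are shown first, because they hold letters of the kind that ATF4 and its partners are known to bind. Windows of 300 bases around the start came from RefSeq on GRCm38.p6, the assembly also called mm10. Each began 250 bases before the start. They were matched for 8 of the 10 genes, all except *Slc7a5* and *Slc7a2*. The core of the C/EBP-ATF response element, TGATGNAA on either strand, was found in 5 of the 8, namely *Atf3*, *Chac1*, *Slc7a11*, *Asns* and *Trib3*. It was present in 3.97% of all 32851 promoter windows. The stricter form TGATGCAA, a subset of these matches, was found in *Atf3*, *Chac1* and *Slc7a11*, and in 0.895% of all windows. The windows of *Atf4*, *Ddit3* and *Slc3a2* held no match of TGATGNAA, and bases outside the windows were not searched. Capitals below mark these matches. They also mark the CRE-like letters TTACGTCA in *Atf3* (TGACGTAA on the other strand, in 0.499% of windows) and TGACGCAA in *Chac1* (in 0.49%), and the STAT-type motif TTCNNNGAA in *Slc7a11* (in 8.3%). None of these marked stretches overlap each other. All are written 5′ to 3′ on the strand of the gene, and positions count back from the base before the start used for the RefSeq window. For *Slc7a11* and *Slc3a2* that start lies 55474 and 9472 bases inside the outer bounds that the RefSeq annotation gives the gene, and for the other 6 it is the outer bound itself.
*Atf3*, chr1:191183334-191183453, minus strand, from -120: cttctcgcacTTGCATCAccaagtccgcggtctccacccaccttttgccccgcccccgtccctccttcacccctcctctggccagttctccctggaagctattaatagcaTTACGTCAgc
*Chac1*, chr2:119350992-119351071, plus strand, from -250: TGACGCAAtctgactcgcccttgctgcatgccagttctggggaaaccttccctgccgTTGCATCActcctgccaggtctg
*Slc7a11*, chr3:50443644-50443803, minus strand, from -190: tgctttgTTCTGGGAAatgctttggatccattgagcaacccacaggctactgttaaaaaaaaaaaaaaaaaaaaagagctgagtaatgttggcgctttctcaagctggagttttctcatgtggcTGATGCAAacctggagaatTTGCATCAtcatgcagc
*Asns*, chr6:7693210-7693289, minus strand, from -80: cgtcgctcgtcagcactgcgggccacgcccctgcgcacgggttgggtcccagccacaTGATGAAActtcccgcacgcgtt

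*Slc7a11* alone held 2 C/EBP-ATF matches, at -66 and -47, in opposite orientations. The match of *Trib3* began at base 15 of the gene. *Ddit3* held the AP-1 motif TGACTCA (either strand, in 5.2% of all windows) at -242, and no window held the palindromic CRE TGACGTCA (in 1.79%). Genes with the same element went different ways in the libraries, as given for each of them here. A match describes the letters of the window and is not evidence of binding.

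**Figure D1:**
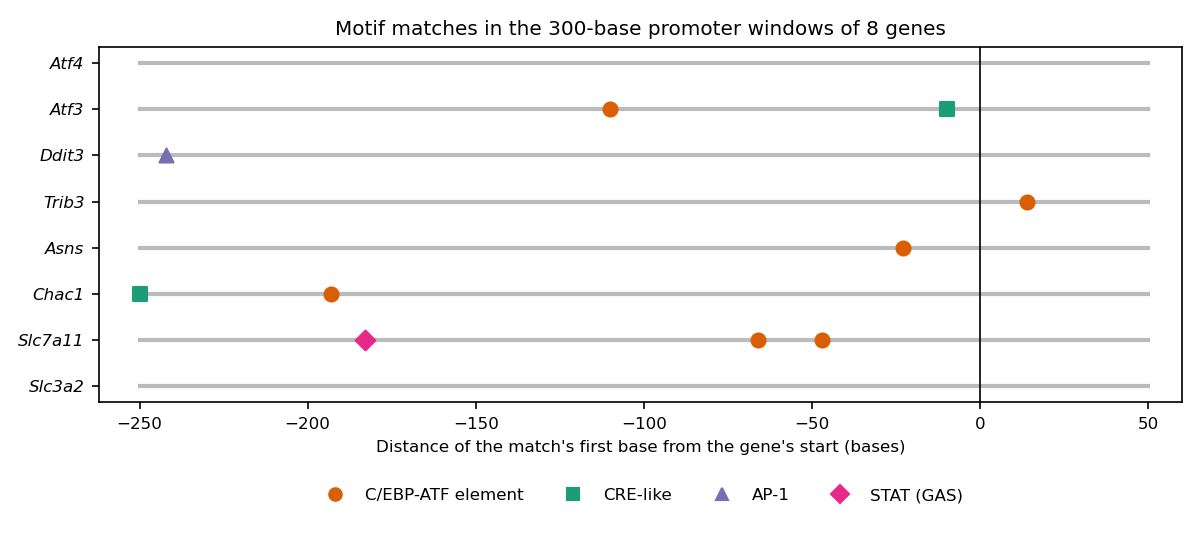
Positions of motif matches in the promoter windows of 8 genes. The horizontal axis is the distance in bases of a match's first base from the start used for the window, each grey line is 1 window of 300 bases, and symbols give the motif. *Slc7a11* holds 2 C/EBP-ATF matches and the only STAT-type match, at -183.

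The 4 libraries were similar in depth, estimated at 33.8 to 36.8 M fragments. Values are FPKM (fragments scaled by transcript length and library size), summed over the transcripts of a gene. Because 1 FPKM was added before the log2 ratio was taken, ratios of scarce genes come out too small. A gene was called higher or lower from 2-fold on this scale. The 10763 genes that reached 1 FPKM in any library had a median log2 ratio of 0.14 with RANKL, -0.15 on adding IL-3 and 0.13 in cKO cells, and the ratios of the 10 genes are to be read beside these shifts. *Stat5a* and *Stat5b* stood at 0.17 and 0.19 FPKM in the cKO library, against 11.96 and 8.86 FPKM in the IL-3 library. The cell type label is osteoclast for all 4 cultures, although the title of the M-CSF library calls its cells precursors. A list of 10 osteoclast markers summed to 518 FPKM in the cKO library, 141 FPKM in the IL-3 library, 1277 FPKM in the RANKL library and 45.9 FPKM in the M-CSF library, with *Calcr* at 0 in all 4. *Oscar* was under 1 FPKM in every library. Of the 8 that reached 1 FPKM, 7 were above the M-CSF library with RANKL, and *Itgb3* was highest in the M-CSF library (1.38 FPKM). All 8 macrophage markers were detected in every library and summed to 1570 FPKM in the cKO library, 2122 FPKM in the IL-3 library, 1298 FPKM in the RANKL library and 2930 FPKM in the M-CSF library. In cKO 7 of these 8 were below the IL-3 library, and *Cd14* was above it (249 against 147 FPKM). All 6 markers of neutrophils and their progenitors were detected too, at 465, 669, 442 and 786 FPKM in the same order of libraries. The listed markers of B cells, T cells, erythroid cells and stromal cells each stood under 1 FPKM in every library, and the 5 of basophils and mast cells reached at most 1.61 FPKM, in the IL-3 library. Of 5 dendritic cell markers *Flt3*, *Zbtb46* and *Ccr7* were under 1 FPKM in every library. The whole list summed to 106 FPKM in the cKO library, 535 FPKM in the IL-3 library, 94.2 FPKM in the RANKL library and 138 FPKM in the M-CSF library. Most of each sum was *Cd74* alone, at 94.9, 434, 83.4 and 130 FPKM in the same order of libraries. *Itgax* gave most of the rest, at 9.955, 99.7, 10.2 and 7.78 FPKM. The part that the makeup of the cultures has in the values of the 10 genes was not tested. In such bulk samples, fewer cells of a type and less RNA per cell cannot be told apart.

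The mRNA of the central regulator hardly differed between the 4 libraries, whereas 2 of the factors that act below it did. *Atf4* stood at 124 FPKM in the cKO library, 118 FPKM in the IL-3 library, 119.6 FPKM in the RANKL library and 95.02 FPKM in the M-CSF library. It was the most even of the 10 genes, with the highest value 1.3 times the lowest. Its log2 ratio was 0.33 with RANKL, -0.01 when IL-3 was added and 0.06 in cKO cells, and the sign of the last 2 turned round when libraries were scaled to a common median (0.16 and -0.08). Of its 2 RefSeq transcripts, the one with the larger value gave 55.6% to 60.7% of the level in each library.

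*Atf3*, a factor of the same bZIP class that mostly represses and is induced within hours by stress and inflammatory signals, showed the widest range of the 10 on the log2(FPKM + 1) scale, whereas the plain ratio of highest to lowest FPKM was larger for *Slc7a2*. It stood at 6.92 FPKM in the cKO library, 54.4 FPKM in the IL-3 library, 4.94 FPKM in the RANKL library and 52.7 FPKM in the M-CSF library. The IL-3 and M-CSF libraries were high and close to each other, and the cKO and RANKL libraries were both low. *Atf3* was 10.7-fold lower with RANKL than with M-CSF, with an approximate 95% interval of 9.56 to 11.9 from counting error alone. It was 11.0-fold higher with RANKL and IL-3 than with RANKL (9.87 to 12.3), and 7.87-fold lower in cKO than in fl/fl cells with IL-3 (7.17 to 8.63). It was the only one of the 10 that passed 2-fold in all 3 comparisons.

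*Ddit3* encodes CHOP, a partner of C/EBP factors that promotes cell death under lasting stress. It stood at 8.01 FPKM in the cKO library, 17.2 FPKM in the IL-3 library, 6.23 FPKM in the RANKL library and 10.2 FPKM in the M-CSF library. The IL-3 library was the highest, 2.77-fold above RANKL (2.35 to 3.26), 2.15-fold above cKO (1.86 to 2.49) and 1.68-fold above M-CSF (1.465 to 1.935). The cKO ratio of -1.02 lay just past the threshold, and the ratio of IL-3 to M-CSF (0.70) lay within it. Of its 2 RefSeq transcripts, the scarcer was level between the IL-3 and M-CSF libraries (3.61 and 3.64 FPKM). The more abundant one stood at 13.6 and 6.60 FPKM there. Exons of *Ddit3* overlap those of *Mars* on the opposite strand, and whether strand was used in counting is not stated, so the values of *Ddit3* are uncertain. *Mars* itself stood at 49.8, 33.0, 51.1 and 30.3 FPKM in the cKO, IL-3, RANKL and M-CSF libraries, lower in the 2 libraries in which *Ddit3* was higher.

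*Trib3* encodes a pseudokinase that ATF4 and CHOP induce and that restrains them in turn. It was scarce, at 1.06 FPKM in the cKO library, 1.56 FPKM in the IL-3 library, 0.61 FPKM in the RANKL library and 1.11 FPKM in the M-CSF library. These values correspond to about 79, 116, 44 and 76 fragments. The order of the libraries was that of *Ddit3*, with cKO and M-CSF nearly equal. The 2.54-fold difference between the IL-3 and RANKL libraries (1.79 to 3.59) gave a log2 ratio of 0.67 because of the added 1 FPKM.

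**Figure D2:**
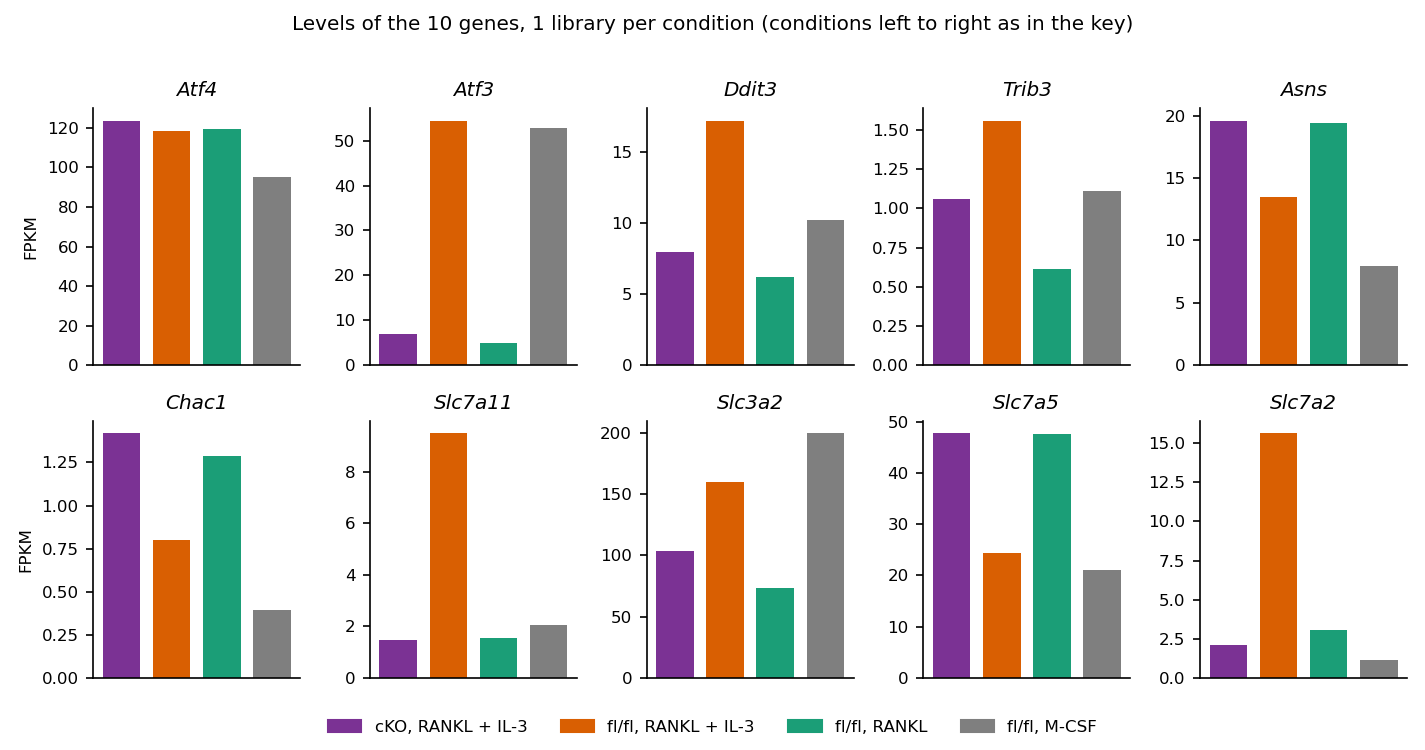
FPKM of the 10 genes, 1 panel per gene with its own vertical axis from 0. Each bar is the value of 1 library, so there are no error bars. *Atf4* is nearly level, *Atf3* is at 54.4 FPKM in the IL-3 library and 4.94 FPKM in the RANKL library, and *Asns*, *Chac1* and *Slc7a5* are highest in the cKO and RANKL libraries.

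The enzyme genes took another course than *Atf3* and *Ddit3*. *Asns*, which encodes the enzyme that makes asparagine from aspartate and glutamine, stood at 19.6 FPKM in the cKO library, 13.5 FPKM in the IL-3 library, 19.4 FPKM in the RANKL library and 7.93 FPKM in the M-CSF library. It was 2.44-fold higher with RANKL than with M-CSF (2.21 to 2.70), and the cKO and RANKL libraries were almost equal (1.01-fold, 0.94 to 1.09). *Chac1* encodes a cytosolic enzyme that breaks down glutathione. It stood at 1.42 FPKM in the cKO library, 0.80 FPKM in the IL-3 library, 1.29 FPKM in the RANKL library and 0.40 FPKM in the M-CSF library, or about 85, 48, 74 and 22 fragments. Its order was that of *Asns*, and the 3.24-fold difference between RANKL and M-CSF rests on few fragments (2.02 to 5.22). Neither enzyme gene was 2-fold apart with IL-3 or in cKO.

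Among the transporters, *Slc3a2* encodes the CD98 heavy chain, which carries several light chains to the cell surface. With *Atf4* it was 1 of the 2 most abundant of the 10 in every library, at 103 FPKM in the cKO library, 159.6 FPKM in the IL-3 library, 73.6 FPKM in the RANKL library and 199.6 FPKM in the M-CSF library. It was 2.71-fold lower with RANKL than with M-CSF (2.62 to 2.80) and 2.17-fold higher with RANKL and IL-3 than with RANKL (2.10 to 2.24). The cKO library lay between the RANKL and IL-3 libraries, 1.54-fold below the IL-3 library. One of its 2 transcripts gave 98.6% to 99% of the level in every library.

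The light chains did not follow their heavy chain as a group. *Slc7a5* encodes LAT1, which takes up leucine and other large neutral amino acids in exchange for glutamine. It stood at 47.7 FPKM in the cKO library, 24.3 FPKM in the IL-3 library, 47.6 FPKM in the RANKL library and 21.1 FPKM in the M-CSF library. The libraries fell into a high and a low pair, with cKO and RANKL equal within counting error (1.00-fold, 0.97 to 1.04). It was 2.25-fold higher with RANKL than with M-CSF, and its ratios with IL-3 (-0.94) and in cKO (0.95) lay just inside the threshold.

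*Slc7a11* encodes xCT, which brings in cystine for glutathione synthesis in exchange for glutamate. It stood at 1.46 FPKM in the cKO library, 9.49 FPKM in the IL-3 library, 1.56 FPKM in the RANKL library and 2.06 FPKM in the M-CSF library. It was highest in the IL-3 library, 6.08-fold above RANKL (5.54 to 6.68) and 6.5-fold above cKO (5.91 to 7.15). Per 100 FPKM of *Slc3a2*, *Slc7a5* stood at 46.15 FPKM in the cKO library, 15.2 FPKM in the IL-3 library, 64.7 FPKM in the RANKL library and 10.6 FPKM in the M-CSF library. The corresponding values of *Slc7a11* were 1.41 FPKM in the cKO library, 5.94 FPKM in the IL-3 library, 2.12 FPKM in the RANKL library and 1.03 FPKM in the M-CSF library. Of the other light chains of CD98, *Slc7a8* stood at 74.4 FPKM in the cKO library, 145 FPKM in the IL-3 library, 38.7 FPKM in the RANKL library and 213 FPKM in the M-CSF library, the same order as *Slc3a2*. It encodes LAT2, a second exchanger of neutral amino acids. *Slc7a7*, which exports cationic amino acids, stood at 9.12, 13.6, 4.14 and 30.9 FPKM in the cKO, IL-3, RANKL and M-CSF libraries, again with that order, whereas *Slc7a6* stood at 13.4, 8.23, 15.0 and 9.48 FPKM and was nearer to *Slc7a5*.

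*Slc7a2* encodes a carrier of arginine, lysine and ornithine that needs no heavy chain and supplies arginine to nitric oxide synthase and arginase in macrophages. It stood at 2.09 FPKM in the cKO library, 15.6 FPKM in the IL-3 library, 3.05 FPKM in the RANKL library and 1.17 FPKM in the M-CSF library. As with *Slc7a11*, the IL-3 library stood apart from the other 3. It was 5.12-fold above RANKL (4.60 to 5.71), 7.46-fold above cKO (6.59 to 8.45) and 13.4-fold above M-CSF (11.3 to 15.8). One of its 2 transcripts gave at least 99.1% of the level in every library. *Slc7a1*, the widely expressed carrier of the same amino acids, stood at 26.5 FPKM in the cKO library, 14.1 FPKM in the IL-3 library, 28.3 FPKM in the RANKL library and 12.1 FPKM in the M-CSF library, high and low in the same libraries as *Slc7a5*. The arginase gene *Arg1* stood at 6.92 FPKM in the cKO library, 298 FPKM in the IL-3 library, 1.62 FPKM in the RANKL library and 17.2 FPKM in the M-CSF library. *Ass1*, whose product takes part in remaking arginine from citrulline, stood at 33.1 FPKM in the cKO library, 49.7 FPKM in the IL-3 library, 22.1 FPKM in the RANKL library and 11.6 FPKM in the M-CSF library. The inducible nitric oxide synthase gene *Nos2* was under 1 FPKM in all 4 libraries.

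**Figure D3:**
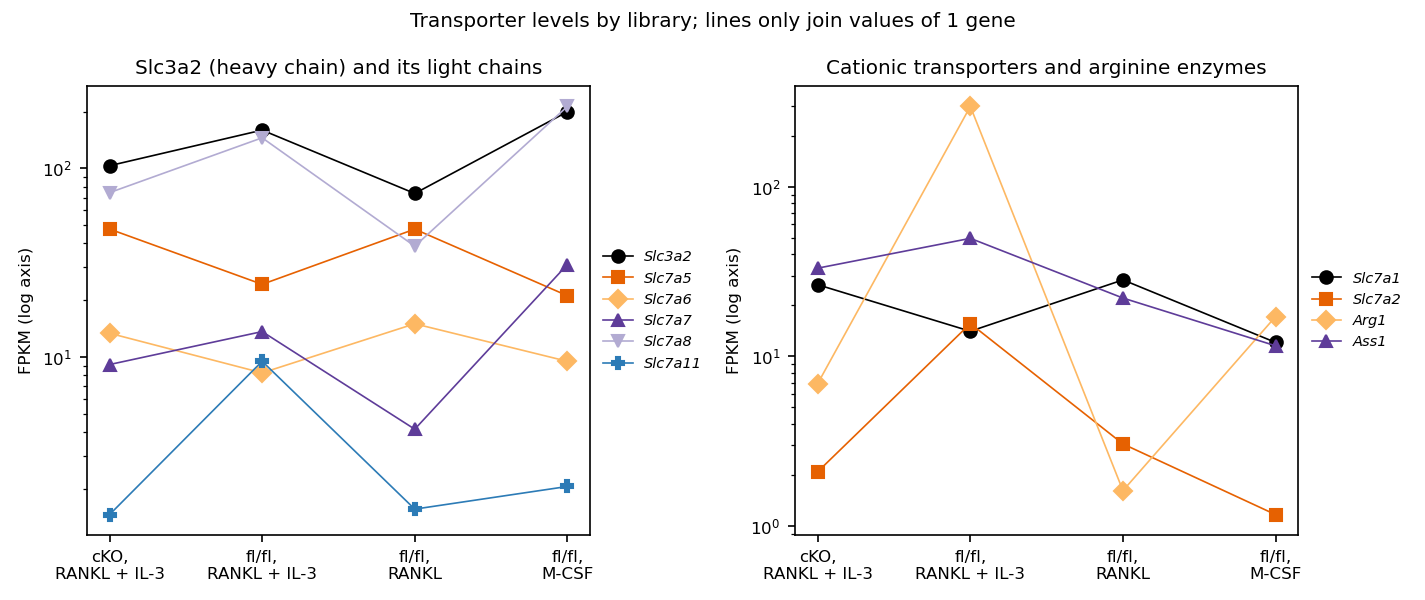
FPKM on a log axis in the 4 libraries for *Slc3a2* and 5 of its light chains (left) and for 2 cationic transporters and 2 enzymes of arginine metabolism (right). Each point is 1 library, and lines only join the values of a gene. *Slc7a5* is high where *Slc3a2* is low, and *Slc7a2*, *Slc7a11* and *Arg1* peak in the IL-3 library.

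To see what RANKL alone was accompanied by, the RANKL library was set against the M-CSF library. Of the 10 genes, 2 were at least 2-fold higher, *Asns* (log2 ratio 1.19) and *Slc7a5* (1.14), where 5.44% of all genes were. Equally, 2 were lower, *Atf3* (-3.18) and *Slc3a2* (-1.43), where 6.88% of all genes were (12.3% in either direction). The other 6 lay within 2-fold, and the median over the 10 was 0.04. When libraries were scaled to a common median, *Slc7a5* came to 0.98 and was no longer called, and the calls over all genes moved to 440 higher and 935 lower, against 585 higher and 740 lower without scaling. With 0.1 FPKM added in place of 1 FPKM, *Chac1* (1.48) and *Slc7a2* (1.31) were also higher, 4 of 10 against 7.51% of all genes.

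When IL-3 was added to RANKL, 5 of the 10 reached 2-fold on the higher side and 0 on the lower side, against 6.11% and 3.47% of all genes (9.58% in either direction). Median scaling changed these all-gene counts to 814 higher and 274 lower, against 658 higher and 373 lower without it. They were *Atf3* (3.22), *Slc7a2* (2.04), *Slc7a11* (2.03), *Ddit3* (1.33) and *Slc3a2* (1.11). The median over the 10 was 0.89. *Asns*, *Chac1* and *Slc7a5* were on the lower side without reaching 2-fold, at -0.50, -0.35 and -0.94.

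Next, cKO cells were set against *Stat5* fl/fl cells with the same cytokines. There was no cKO library without IL-3. A lost response to IL-3 and a genotype difference that is there without IL-3 therefore cannot be told apart. Of the 10 genes, 4 were lower and 0 were higher in cKO, against 4.28% and 2.11% of all genes (6.39% in either direction). Median scaling changed these all-gene counts to 551 lower and 185 higher, against 461 lower and 227 higher without it. The 4 were *Atf3* (-2.81), *Slc7a2* (-2.43), *Slc7a11* (-2.09) and *Ddit3* (-1.02), all of which were also among the 5 higher with IL-3. This comparison and the one of IL-3 with RANKL share the IL-3 library, so a high or low value there enters both. *Slc3a2*, the other gene higher with IL-3, was at -0.62 in cKO. The median over the 10 was -0.47.

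**Figure D4:**
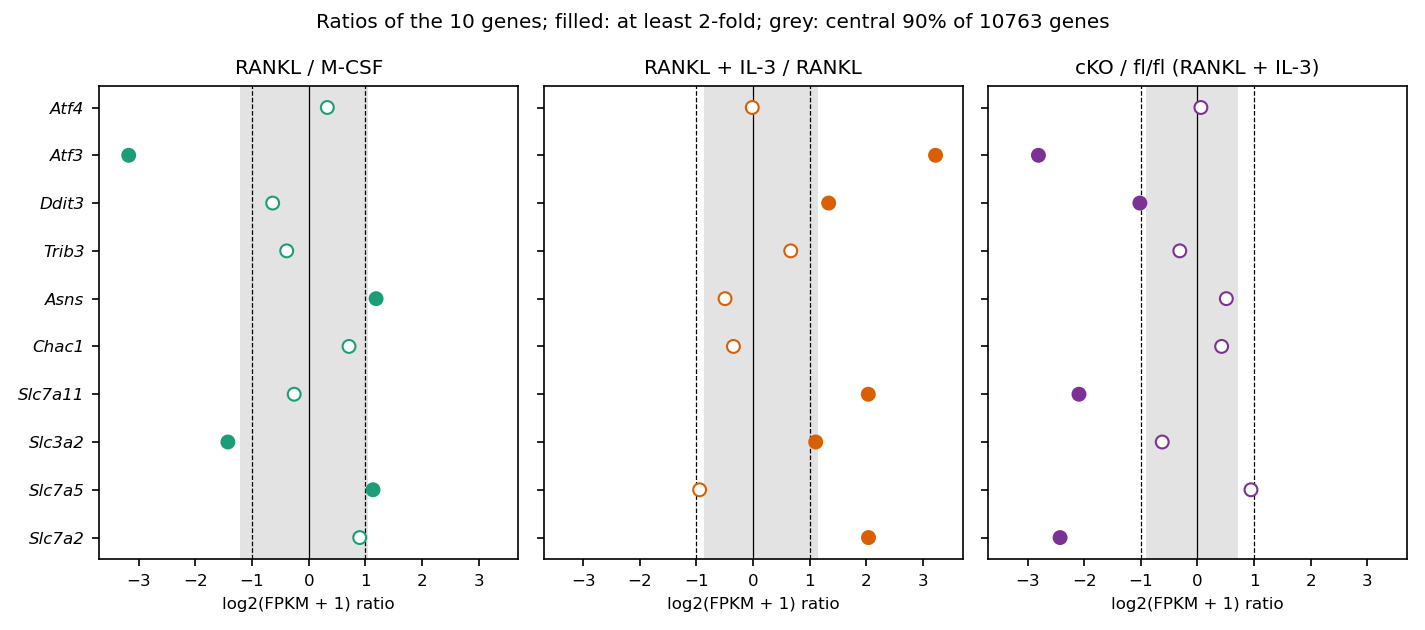
Log2(FPKM + 1) ratios of the 10 genes for RANKL against M-CSF (left), RANKL with IL-3 against RANKL (middle) and cKO against fl/fl with RANKL and IL-3 (right). Filled points are at least 2-fold apart, dashed lines mark 2-fold, and grey bands hold the central 90% of 10763 genes. *Atf3* lies outside the band in all 3 panels, at -3.18, 3.22 and -2.81.

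By the signs of the 3 ratios, 5 of the 10 genes had a negative ratio with RANKL, a positive one with IL-3 and a negative one in cKO, namely *Atf3*, *Ddit3*, *Trib3*, *Slc7a11* and *Slc3a2*. The signs were opposite in 4, *Asns*, *Chac1*, *Slc7a5* and *Atf4*, of which *Atf4* changed sign with scaling. Over all 10763 genes, 25.7% had the first course and 51.3% the opposite one. Neighbouring ratios share a library, the RANKL library in the first pair and the IL-3 library in the second, so a high or low value there turns both signs. *Slc7a2* was higher both with RANKL and with IL-3 and lower in cKO. Of the 5 genes with a TGATGNAA match, *Atf3*, *Trib3* and *Slc7a11* belonged to the first course and *Asns* and *Chac1* to the second.

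The cKO library with IL-3 was also set against the fl/fl library with RANKL alone, a comparison in which both genotype and IL-3 differ. Of the 10 genes 0 were higher and 0 lower, where 0.929% of all genes were higher and 0.353% lower (1.28% in either direction). The largest ratios were those of *Slc3a2* (0.48), *Atf3* (0.42) and *Slc7a2* (-0.39). Between the IL-3 and M-CSF libraries of fl/fl cells, 2 genes were higher, *Slc7a2* (2.94) and *Slc7a11* (1.78), and 0 were lower, against 2.5% and 1.42% of all genes (3.92% in either direction). *Atf3* was then at 0.05 and *Slc7a5* at 0.19, so that for these 2 genes the IL-3 library came close to the M-CSF library.

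Other genes of the ATF4 pathway were described from lists. Their counts stand beside the all-gene shares given for the 10 genes, which were 5.44% higher and 6.88% lower with RANKL, 6.11% and 3.47% on adding IL-3, and 2.11% and 4.28% for cKO, and their medians beside the all-gene medians of 0.14, -0.15 and 0.13. Of 12 genes of amino-acid and one-carbon synthesis, 8 reached 1 FPKM. With RANKL against M-CSF 1 of them was higher, *Shmt2*, which encodes the mitochondrial enzyme that takes a one-carbon unit from serine, and 0 were lower (median 0.46, against 0.14 over all genes). With IL-3 against RANKL (median -0.34, against -0.15) and in cKO (0.33, against 0.13), 0 of the 8 were 2-fold apart in either direction. *Shmt2* stood at 111 FPKM in the cKO library, 58.7 FPKM in the IL-3 library, 108 FPKM in the RANKL library and 47.1 FPKM in the M-CSF library, which is the order of *Asns*, *Chac1* and *Slc7a5*. *Phgdh*, the entry enzyme of serine synthesis, stood at 5.29, 7.49, 5.67 and 4.42 FPKM in the cKO, IL-3, RANKL and M-CSF libraries and did not share it.

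Of 13 further stress-response genes known as ATF4 targets, 9 reached 1 FPKM. With RANKL 1 was higher, *Ppp1r15a*, and 2 were lower, *Cebpb* and *Gdf15* (median -0.47). With IL-3 3 were higher, *Gdf15*, *Cebpb* and *Atf5*, and 0 were lower (median 0.74), and in cKO 2 were lower, *Cebpb* and *Gdf15*, and 0 were higher (median -0.41). Median scaling changed the RANKL count to 3 lower and the IL-3 count to 4 higher. *Ppp1r15a* is counted again in the list of eIF2 genes. *Gdf15*, a secreted stress signal, stood at 1.18 FPKM in the cKO library, 6.15 FPKM in the IL-3 library, 0.40 FPKM in the RANKL library and 3.24 FPKM in the M-CSF library. *Cebpb*, which encodes a C/EBP partner of ATF4, stood at 62.7 FPKM in the cKO library, 169.7 FPKM in the IL-3 library, 42.7 FPKM in the RANKL library and 92.8 FPKM in the M-CSF library. Both had the order of *Ddit3*, high in the IL-3 library and low with RANKL.

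Upstream of ATF4, few genes passed 2-fold, while most ratios of a comparison had the same sign. Of 13 genes for eIF2 kinases, phosphatase subunits and the exchange factor eIF2B, 2 were higher with RANKL, *Ppp1r15a* and *Eif2b3*, and 0 were lower (median 0.57), of which 1 remained called when libraries were scaled to a common median. With IL-3 (median -0.44) and in cKO (median 0.40), 0 of the 13 were 2-fold apart in either direction. The ratio was above 0 for 11 of 13 genes with RANKL, below 0 for 12 with IL-3 and above 0 for 12 in cKO, which are the directions of the all-gene medians. *Ppp1r15a* encodes GADD34, which brings a phosphatase to eIF2 and is itself an ATF4 target. It stood at 8.45 FPKM in the cKO library, 5.82 FPKM in the IL-3 library, 11.5 FPKM in the RANKL library and 3.81 FPKM in the M-CSF library. The kinase gene *Eif2ak3*, which encodes PERK and is named here outside the rule for named genes, lay between 6.998 and 7.92 FPKM in all 4.

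Of 17 genes of the unfolded protein response outside the ATF4 arm, mostly chaperones and folding enzymes, 0 were higher and 1 was lower with RANKL, *Sdf2l1* (median -0.54). With IL-3 4 were higher, *Pdia4*, *Sdf2l1*, *Pdia6* and *Manf*, and 1 was lower, *Atf6* (median 0.72). Median scaling changed the IL-3 counts to 6 higher and 0 lower, and the RANKL count to 2 lower. In cKO 1 was lower, *Pdia4*, and 0 were higher (median -0.59). *Pdia4*, a protein disulfide isomerase gene, stood at 74.1 FPKM in the cKO library, 307 FPKM in the IL-3 library, 64.6 FPKM in the RANKL library and 93.0 FPKM in the M-CSF library. It was high in the IL-3 library alone, as *Slc7a11* was.

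Of 25 other amino-acid transporter genes, 14 reached 1 FPKM, and they differed in direction as the 4 among the 10 did. With RANKL 2 were higher, *Slc1a5* and *Slc7a1*, and 3 were lower, *Slc7a7*, *Slc7a8* and *Slc36a1* (median 0.10). With IL-3 the 3 that had been lower were higher, and 1 was lower, *Slc1a5* (median -0.21). In cKO 1 was lower, *Slc36a1*, and 0 were higher (median 0.05). Median scaling turned the sign of the RANKL and cKO medians (-0.06 and -0.06), and with IL-3 it left 4 higher and 0 lower. In cKO 2 were lower when libraries were scaled to a common median (5.12% of all genes) or upper quartile (4.82%). *Slc1a5*, which takes up glutamine, stood at 117 FPKM in the cKO library, 67.0 FPKM in the IL-3 library, 147 FPKM in the RANKL library and 42.6 FPKM in the M-CSF library. *Slc36a1*, a proton-coupled carrier of small amino acids on lysosomes, stood at 5.29 FPKM in the cKO library, 17.8 FPKM in the IL-3 library, 4.24 FPKM in the RANKL library and 14.0 FPKM in the M-CSF library. *Slc1a5* was thus high in the same libraries as *Slc7a5*, and *Slc36a1* had the order of *Ddit3*.

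**Figure D5:**
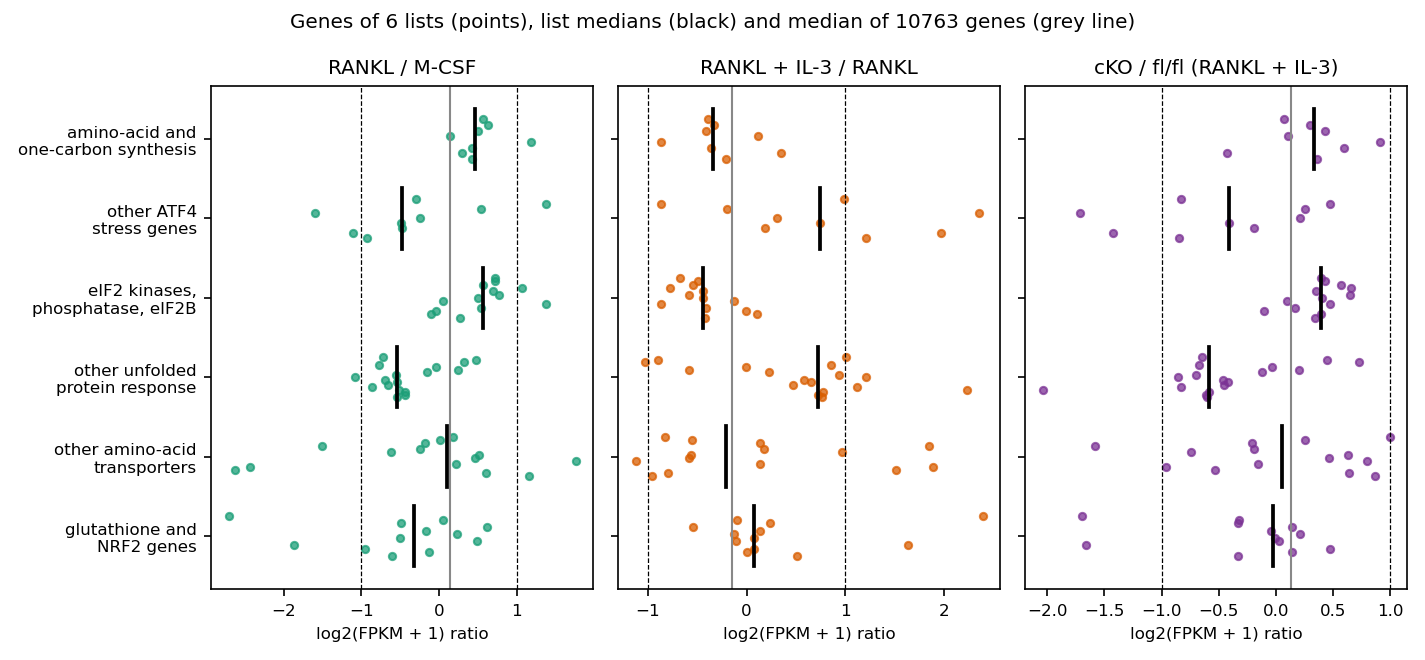
Log2(FPKM + 1) ratios of the measured genes of 6 lists in the 3 comparisons, each point a gene. Black bars are list medians, the grey line is the median of 10763 genes and dashed lines mark 2-fold. Lists of synthesis and of eIF2 regulation lie to the right with RANKL (medians 0.46 and 0.57), and the unfolded protein response list lies to the left (-0.54).

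Profiles over the 4 libraries were compared for the 3 genes of widest range on the log2(FPKM + 1) scale, by the Euclidean distance between log2(FPKM + 1) values centred on their mean, over 8442 genes that reached 5 FPKM in any library. The 4 values of a gene give only a coarse order, so closeness is a description. The nearest to *Atf3* were *Zranb3* (distance 0.32), *Hal*, *Fn1* and *Fcgr3*. The nearest to *Slc7a2* were *Egr2* (0.17), *Socs2*, *Csf2rb*, *Tfec* and *Il1rn*. *Egr2* encodes a zinc-finger transcription factor and stood at 2.34 FPKM in the cKO library, 18.0 FPKM in the IL-3 library, 4.09 FPKM in the RANKL library and 1.40 FPKM in the M-CSF library. The nearest to *Slc7a11* were *Hvcn1* (0.08), *Cxcl1*, *Pdia4*, *Fam198b* and *Cd74*. *Hvcn1*, a proton channel gene, stood at 12.7 FPKM in the cKO library, 54.3 FPKM in the IL-3 library, 12.7 FPKM in the RANKL library and 14.8 FPKM in the M-CSF library.

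In GRCm38.p6, *Atf4* lies on chromosome 15 from 80255184 to 80257545, *Atf3* on chromosome 1 from 191170296 to 191183333 and *Ddit3* on chromosome 10 from 127290793 to 127296291. *Chac1* and *Trib3* lie apart on chromosome 2, from 119351242 to 119354326 and from 152337425 to 152344060, and *Asns* on chromosome 6 from 7675165 to 7693209. The transporters are on chromosome 3 (*Slc7a11*, 50364936 to 50499087), chromosome 19 (*Slc3a2*, 8706882 to 8723369) and chromosome 8 (*Slc7a2*, 40862341 to 40922070, and *Slc7a5*, 121881146 to 121907686). Besides *Ddit3*, only *Slc7a2* shares exon positions with another annotated gene, a long non-coding RNA on the opposite strand, so its values carry the same uncertainty about strand.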

How the data were processed

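Cells were lysed in Qiazol, and libraries were prepared with a TruSeq RNA kit and sequenced on a HiSeq2000 system. The submitters' processing notes name mm10, TopHat2 2.0.13 and Cufflinks 2.2.1, without the options used, and the authors' table lists RefSeq transcripts. The deposited table does not name its unit, and its values were read as FPKM. Columns were assigned through the sample descriptions. The 33170 transcripts were summed per gene ID, small RNA genes recognised by symbol were left out (46 of them reached 1 FPKM), and log2(FPKM + 1) ratios were taken.

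No test was possible with 1 library per condition. The 10 genes, the lists and the depth estimate were chosen with earlier results of these data known. From each list, up to 4 genes with the largest ratio in a comparison could be named. *Mars*, *Slc7a6*, *Eif2ak3*, *Nos2* and *Cebpg* were named outside this rule, with their values known. So were the cell type markers *Itgb3*, *Calcr*, *Oscar*, *Flt3*, *Zbtb46* and *Ccr7*. To estimate depth, FPKM was multiplied by GENCODE M21 transcript length for genes with a lone transcript of 3000 nt or longer, and the spacing of the lowest products was taken as 1 fragment. Per library, 70.6% to 73.4% of them came within 0.2 of a whole number of fragments. The depth was picked as the best fit to these same products, so this share is no independent check of it. Intervals follow from the implied fragments, are approximate and cover counting error only. The ratio step was tested on simulated libraries. Python 3.11.15, numpy 2.4.6, pandas 2.3.3 and matplotlib 3.10.9 were used.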

Additional observations from a re-analysis of the deposited data

How the results depend on the processing

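The number of the 10 genes called was recomputed with 0.1 FPKM added, with libraries scaled to a common median ratio or upper quartile, with a minimum of 5 FPKM or none, with thresholds of 1.5-fold and 4-fold, and with the most abundant transcript per gene. Percentages in brackets are the shares of all genes with the same call at that setting. For RANKL against M-CSF the 2 higher genes became 4 with 0.1 FPKM added (7.51%) and 1 with median scaling (4.09%). They became 4 at 1.5-fold (15.6%) and 0 at 4-fold (1.15%), and the 2 lower genes became 1 at 4-fold (1.51%). For IL-3 the 5 higher genes became 3 at 4-fold (1.63%), and the 0 lower genes became 1 at 1.5-fold (12.7%). For cKO the 0 higher genes became 1 at 1.5-fold (8.43%). The other counts stayed within 1.5 times. Of 120 single ratios recomputed under the 4 alternatives that change them, 116 kept their side of the threshold, 3 gained a call, 1 lost it and 0 called ratios changed sign. *Trib3* gained its call with 0.1 FPKM added, at 1.22 for IL-3. *Trib3* and *Chac1* fell under the minimum of 5 FPKM, which left 8 genes. Depth limits these 2 genes, which rest on 22 to 116 fragments per library.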

Other observations

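ATF4, ATF3 and CHOP bind DNA in pairs with other bZIP factors, and 18 of 19 such factors of the ATF, CREB, BATF and C/EBP families reached 1 FPKM. Among them *Atf5*, *Cebpb*, *Cebpg* and *Atf6* were already counted in the lists above. Among all genes the shares called were 5.44% higher and 6.88% lower for RANKL, 6.11% and 3.47% on adding IL-3, and 2.11% and 4.28% for cKO. Of the 18, with RANKL against M-CSF 1 was higher, *Jdp2*, and 4 were lower, *Batf3*, *Crem*, *Cebpd* and *Cebpb*. With IL-3 against RANKL 6 were higher, *Batf3*, *Cebpb*, *Batf*, *Crem*, *Cebpd* and *Atf5*, and 2 were lower, *Jdp2* and *Atf6*, the second of which was no longer called when libraries were scaled to a common median. In cKO 1 was higher, *Jdp2*, and 3 were lower, *Batf3*, *Batf* and *Cebpb*. The number lower became 5 with that scaling, where 5.12% of all genes were lower. *Jdp2*, a repressor related to ATF3 that is known to favour osteoclast formation, stood at 276 FPKM in the cKO library, 35.8 FPKM in the IL-3 library, 462 FPKM in the RANKL library and 12.8 FPKM in the M-CSF library. It was high in the 2 libraries in which *Atf3* was low. *Batf3*, a factor of dendritic cell development, stood at 0.77 FPKM in the cKO library, 6.08 FPKM in the IL-3 library, 0.43 FPKM in the RANKL library and 2.81 FPKM in the M-CSF library.

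All 12 listed genes of glutathione synthesis and of the NRF2 response, in which *Slc7a11* takes part as the supplier of cystine, were measured. *Gclm* and *Hmox1* were the only ones 2-fold apart in any of the 3 comparisons, on the lower side with RANKL and in cKO and on the higher side with IL-3. With libraries scaled to a common median 3 genes were lower with RANKL, where 8.69% of all genes were. *Gclm*, the modifier subunit of the first enzyme of glutathione synthesis, stood at 57.3 FPKM in the cKO library, 183 FPKM in the IL-3 library, 58.6 FPKM in the RANKL library and 216 FPKM in the M-CSF library. *Hmox1*, the heme oxygenase gene, stood at 128 FPKM in the cKO library, 416 FPKM in the IL-3 library, 78.7 FPKM in the RANKL library and 521 FPKM in the M-CSF library. Unlike *Slc7a11*, both were highest in the M-CSF library.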
